A study of Mus musculus with 4 samples.

Results

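The nuclear genes of oxidative phosphorylation were taken from the RefSeq annotation of mm10 (GRCm38.p6) by symbol. They are the protein-coding genes whose symbols start with Nduf, Uqcr, Cox4i, Cox5, Cox6, Cox7, Cox8 or Atp5, together with Sdha to Sdhd. The rule found 96 genes among 21887 protein-coding nuclear genes. It used no measured value. The series mapped the binding of the transcription factor Runx3 in splenic CD8 T cells of wild-type adult mice, isolated with beads against CD8a. Chromatin immunoprecipitation (ChIP) used 50000000 frozen cells from 5 mice, and CUT&RUN used 150000 fresh cells from 1 mouse, both with the same rabbit antiserum against Runx3 at 1 in 200. In CUT&RUN an antibody tethers a nuclease to chromatin, so that DNA near the bound protein is released. Each assay had 1 library, so no difference between the assays has a replicate check. A whole cell extract served as the control of the ChIP peaks, and a CUT&RUN library with normal rabbit serum was not analysed here.

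Oxidative phosphorylation takes place in the inner membrane of mitochondria. Electrons from NADH enter at complex I and those from succinate at complex II, pass through complex III to complex IV and reduce oxygen, and the proton gradient built on the way drives ATP synthase. Most subunits are encoded in the nucleus and some in the mitochondrial genome, so that the nuclear genes must be expressed together, and their promoters are known for sites of the factors NRF1, GABP (an ETS factor) and YY1. CD8 T cells change their use of respiration between the naive, effector and memory states. Runx3 is a RUNX family factor needed for the CD8 lineage, and RUNX proteins bind the letters TGTGGT or TGCGGT.

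The ChIP list held 13166 peaks from 9532996 fragments left after duplicate removal, and the CUT&RUN list held 15891 peaks from 14068364. The pileup, the number of fragments over a peak's summit, is the authors' value and measures how strong a peak is within its list. It was not compared between the assays. As a check of the cell label, all 5 CD8 T cell marker genes examined (Cd8a, Cd8b1, Cd3d, Cd3e and Cd3g) had a summit in the gene span plus 10 kb in both lists, against 34.9% of all protein-coding genes. Within 1 kb of a gene end, 2 of the 5 had a summit in ChIP (against 23.0%) and all 5 in CUT&RUN (against 27.2%). At their ends the 4 B cell and the 4 erythroid markers had no summit in either list, and of the 4 myeloid markers Itgam had a summit in CUT&RUN. Since 68.2% of all protein-coding genes had no end summit in either list, these absences are a weak check. In the span plus 10 kb, 2 of the 4 B cell markers, among them Cd79a, had summits in both lists. Peaks give no cell counts, so the share of other cells in the libraries was not measured.

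Runx3 summits stood at the ends of oxidative phosphorylation genes more often than at the ends of protein-coding genes as a whole. A gene end is either boundary of the annotated span, and a summit within 1 kb of it was counted. In ChIP 43 of the 96 genes had such a summit (44.8%, exact 95% Clopper-Pearson interval 34.6 to 55.3), against 23.0% of all protein-coding genes. In CUT&RUN 45 of 96 had one (46.9%, 36.6 to 57.3), against 27.2%. Both lists had a summit at 29 genes (30.2%, 21.3 to 40.4), against 18.3%, and neither list had one at 37 genes, 38.5% against 68.2%. The intervals cover counting error only, and neighbouring genes can share a summit. With a start site in place of either end, 37 of the 78 genes with a start in the table had a ChIP summit within 1 kb (47.4%, against 24.5% of all genes with a start) and 43 a CUT&RUN summit (55.1%, against 28.8%).

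**Figure D1:**
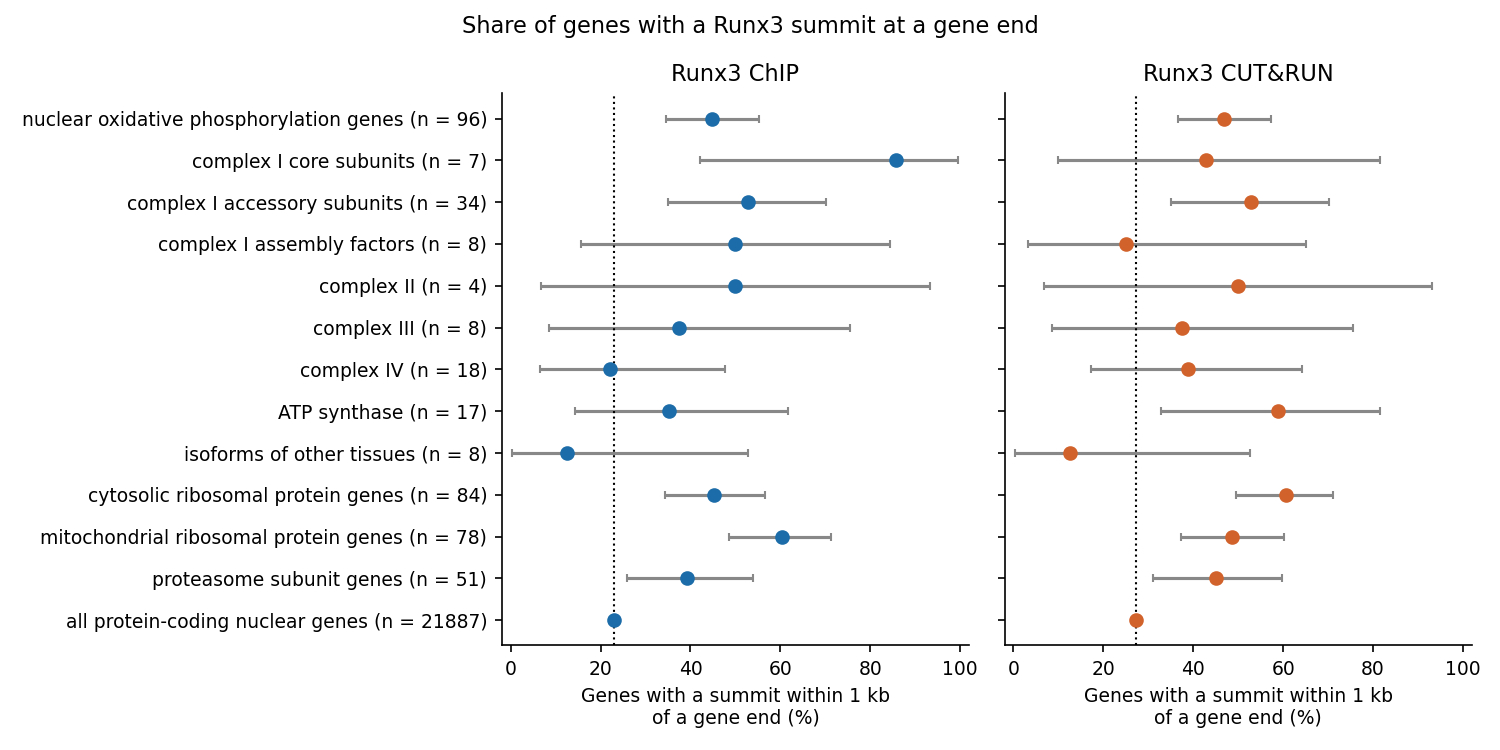
The horizontal axis gives the percentage of genes with a Runx3 summit within 1 kb of a gene end, for ChIP (left) and CUT&RUN (right), with exact 95% intervals as bars and the share of all protein-coding genes as a dotted line. The 96 oxidative phosphorylation genes lie right of the line in both assays (44.8% against 23.0% in ChIP and 46.9% against 27.2% in CUT&RUN), and so do the ribosomal protein and proteasome genes.

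Other sets of housekeeping genes had shares of similar size. In ChIP a summit stood at the ends of 45.2% of 84 cytosolic ribosomal protein genes, 60.3% of 78 mitochondrial ribosomal protein genes and 39.2% of 51 proteasome genes. In CUT&RUN the shares were 60.7%, 48.7% and 45.1%. The intervals of the oxidative phosphorylation genes overlapped those of all of these sets in both assays. No test was made between the sets.

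The peaks at these genes were mostly of moderate or low strength. In ChIP the 47 peaks at ends of oxidative phosphorylation genes had a median pileup of 11 fragments (quartiles 10 and 15), against 12 (9 and 16) for the 4744 peaks at ends of all protein-coding genes. In CUT&RUN the 47 peaks had a median of 21 (15.5 and 28), against 24 (16 and 37) for 5778 peaks. Few ranked high. The strongest 10% of the ChIP list held 2 of the 47 (4.26%, 0.52 to 14.5, against 8.47% of all end peaks). That of the CUT&RUN list held 1 of 47 (2.13%, 0.0539 to 11.3, against 6.18%). Both intervals include the share of all end peaks. When only the stronger 0.5 of each list was kept, 20 genes had a ChIP summit at an end (20.8%, against 12.8% of all genes), 17 a CUT&RUN summit (17.7%, against 14.3%) and 9 both (9.38%, against 8.33%). The excess over all genes was thus smaller among strong peaks than among all peaks. The ChIP peaks at these genes stood on the same expected background as the median peak of their list (ratio 1 in all 47), and the CUT&RUN peaks on 0.778 to 1.38 times it.

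**Figure D2:**
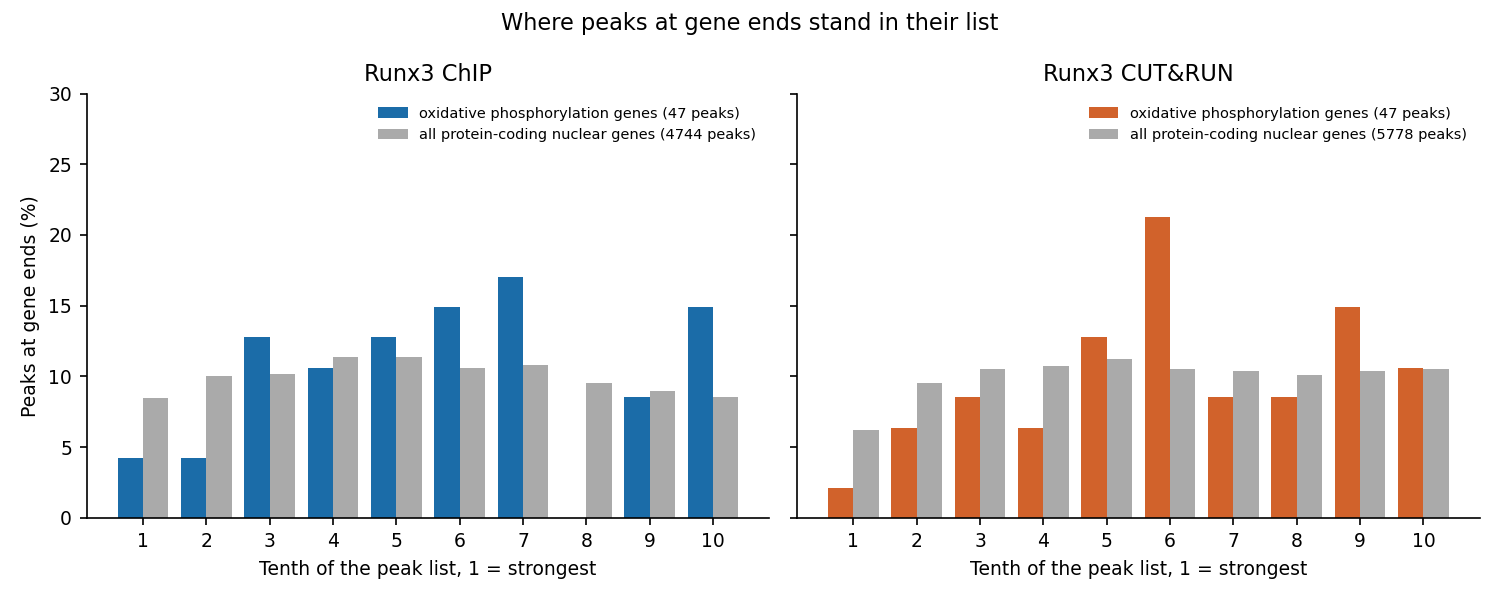
Bars give the percentage of peaks at gene ends that fall in each 10% of the ChIP list (left) and the CUT&RUN list (right), with the strongest 10% first, for oxidative phosphorylation genes (coloured) and all protein-coding genes (grey). The strongest 10% held 4.26% of the 47 ChIP peaks and 2.13% of the 47 CUT&RUN peaks at oxidative phosphorylation genes.

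Complex I, the entry point for electrons from NADH, is the largest group, with 49 genes. Of its 7 core subunit genes, 6 had a ChIP summit at an end (85.7%, 42.1 to 99.6, against 23.0% of all protein-coding genes). In CUT&RUN 3 of these had one as well (42.9% in both lists, 9.9 to 81.6, against 18.3%). Ndufs7, whose product carries the iron-sulfur cluster that hands electrons to ubiquinone, had the highest ChIP peak at an end of any of the 96 genes. The ChIP pileup was 41 (exact 95% Poisson interval 29.4 to 55.6), at rank 199 of 13166. The CUT&RUN summit, 19 bp away, reached 39 fragments (27.7 to 53.3), at rank 4508 of 15891. The gene is thus strong in ChIP and of middling strength in CUT&RUN. The summits lay 84 and 65 bp upstream of the start site. Lying beside the start are 2 tRNA genes, n-TNgtt7 and n-TFgaa3, whose nearest bases were 133 and 329 bp from the ChIP summit, so these genes cannot be told apart as the one the peak belongs to.

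The promoter window of Ndufs7 (250 bases before to 50 after the start, chr10:80249199-80249498, plus strand, GRCm38.p6, RefSeq) is printed because it holds the highest ChIP summit and 4 RUNX matches, more than any other window of these genes. Capitals mark TGTGGT or TGCGGT on either strand. The bases before the first match belong to the tRNA gene n-TNgtt7. The match nearest to the summits starts 72 bp before the start site, and its centre lies 14 bp from the ChIP and 5 bp from the CUT&RUN summit.
Ndufs7: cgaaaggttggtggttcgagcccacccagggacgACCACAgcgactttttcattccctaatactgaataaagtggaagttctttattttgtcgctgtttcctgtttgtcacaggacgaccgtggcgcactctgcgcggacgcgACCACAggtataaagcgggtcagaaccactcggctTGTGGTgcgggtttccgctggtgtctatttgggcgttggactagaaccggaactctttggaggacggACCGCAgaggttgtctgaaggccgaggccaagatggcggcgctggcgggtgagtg

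Ndufs8, another core subunit with iron-sulfur clusters, had 14 fragments at its summit in ChIP (7.65 to 23.5) and 49 in CUT&RUN (36.3 to 64.8), with summits 167 bp apart. Ndufv1, which binds the flavin that takes electrons from NADH, had weak summits in both lists (pileup 7 in ChIP, 2.81 to 14.4, and 18 in CUT&RUN, 10.7 to 28.4). Ndufs1, the largest core subunit, was the best ranked gene with an end summit in ChIP and none in CUT&RUN. It had 2 ChIP summits, with pileups of 16 (9.15 to 26) and 10, and the one with 16 lay outside Ndufs1 and 272 bp from the end of Eef1b2, a translation elongation factor gene. Ndufs3 and Ndufv2 also had end summits in ChIP alone (pileups 11 and 8).

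Of the 34 accessory subunit genes of complex I, 18 had an end summit in each list and 12 in both. The share was 52.9% in each list (35.1 to 70.2), against 23.0% of all protein-coding genes in ChIP and 27.2% in CUT&RUN. In both lists it was 35.3% (19.7 to 53.5), against 18.3%. Ndufb3, a membrane arm subunit, led the mean ranking over both lists. It had 18 fragments in ChIP (10.7 to 28.4, rank 2531) and 71 in CUT&RUN (55.5 to 89.6, rank 815), the highest CUT&RUN peak at an end of any of the 96 genes. Both summits lay closer to Fam126b, a neighbour whose end is within 1 kb, than to Ndufb3. Ndufab1, the mitochondrial acyl carrier protein, had pileups of 16 (9.15 to 26) in ChIP and 31 (21.1 to 44) in CUT&RUN, with summits 24 bp apart. Ndufb10 had 18 (10.7 to 28.4) in ChIP and 27 (17.8 to 39.3) in CUT&RUN, and Ndufa6, which binds the acyl carrier protein, had 13 (6.92 to 22.2) and 29 (19.4 to 41.6). These 3 genes had no other protein-coding gene end within 1 kb of their summits.

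For comparison with Ndufs7, the window of Ndufb3 (chr1:58586147-58586446, plus strand) is printed because it holds both best summits, with the highest CUT&RUN peak, and has no RUNX match, so no letter is in capitals. The absence of these letters in the window says nothing about the factor.
Ndufb3: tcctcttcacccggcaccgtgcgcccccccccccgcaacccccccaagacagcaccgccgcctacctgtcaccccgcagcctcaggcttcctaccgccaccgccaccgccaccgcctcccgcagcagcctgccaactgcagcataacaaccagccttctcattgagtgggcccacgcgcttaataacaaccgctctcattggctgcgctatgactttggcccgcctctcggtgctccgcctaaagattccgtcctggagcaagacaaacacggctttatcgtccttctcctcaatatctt

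A group of 6 further accessory subunit genes followed, with ChIP pileups of 10 to 19 and CUT&RUN pileups of 16 to 24. They are Ndufa11 (15 in ChIP and 24 in CUT&RUN), Ndufs5 (15 and 21), Ndufa13, also known as GRIM-19 (17 and 22), Ndufa3 (13 and 22), Ndufb7 (19 and 16) and Ndufa4 (10 and 23), whose product is now counted with complex IV. The summits of Ndufa13 lay 1598 bp apart for its best peaks, and those of Ndufa11 281 bp apart near the neighbour Vmac, while a second CUT&RUN summit of Ndufa13, with a pileup of 18, lay close to its ChIP summit. All these summits of Ndufa13 were nearer to the neighbour Tssk6. Those of Ndufa4 lay 42 bp (ChIP) and 18 bp (CUT&RUN) from the end of Phf14, nearer than to Ndufa4. Ndufb5 and Ndufb9 completed the 12, with ChIP pileups of 8 and 12 and CUT&RUN pileups of 21 and 10. ChIP alone had an end summit at Ndufs4 (pileups 13, 6.92 to 22.2, and 10), a subunit whose loss impairs complex I, and at Ndufa7, Ndufa1, Ndufb8, Ndufb6 and Ndufa4l2. CUT&RUN alone had one at Ndufs6 (pileup 33, 22.7 to 46.3), a zinc-binding subunit, where the summit lay 83 bp from Mrpl36, and at Ndufv3, Ndufa2, Ndufb11, Ndufa8 and Ndufa5. The other 10 accessory genes, among them Ndufa9, Ndufa10, Ndufa12, Ndufb1, Ndufb2, Ndufb4, Ndufc1 and Ndufc2, had no end summit.

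None of the 8 Ndufaf genes, which encode assembly factors of complex I, had an end summit in both lists. The interval of this share, 0 to 36.9%, includes the 18.3% of all protein-coding genes. ChIP alone had one at Ndufaf1 (pileup 15, 8.40 to 24.7, 23 bp upstream of the start site), Ndufaf2, Ndufaf4 and Ndufaf6. CUT&RUN alone had one at Ndufaf8 (pileup 23, 14.6 to 34.5, nearer to Tepsin) and Ndufaf7. Ndufaf3 and Ndufaf5 had none. Over all 96 genes, 14 had an end summit in ChIP alone (14.6%, against 4.65% of all protein-coding genes), and 13 of these were complex I genes. CUT&RUN alone had 16 (16.7%, against 8.87%), of which 8 were complex I genes. The 14 genes had a median best ChIP pileup of 10.5, against 12 for the 29 genes in both lists. The 16 genes had a median best CUT&RUN pileup of 20, against 22.

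In complex II, or succinate dehydrogenase, 2 of 4 genes had end summits in both lists (50%, 6.76 to 93.2, against 18.3% of all protein-coding genes). Sdha, the flavoprotein, had end summits with pileups of 8 (3.45 to 15.8) in ChIP and 10 (4.80 to 18.4) in CUT&RUN. Sdhb, the iron-sulfur protein, had 8 (3.45 to 15.8) in ChIP and 37 (26.1 to 51) in CUT&RUN, both within 30 bp of the start site. Sdhc and Sdhd, the membrane anchors, had no summit in the span plus 10 kb in either list. That share, 2 of 4 genes (50%, 6.76 to 93.2), was near the 49.5% of all protein-coding genes. Sdhb had 8 peaks in the span plus 10 kb over both lists, the most of the 96 genes. The higher ones belonged to the surroundings, with pileups of 16 in ChIP and 73 in CUT&RUN at the end of Padi2, 51 and 60 bp away.

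Of the 8 Uqcr genes of complex III, 2 had end summits in both lists (25%, 3.19 to 65.1, against 18.3% of all protein-coding genes). Uqcrq had 11 fragments at its summit in ChIP (5.49 to 19.7) and 61 in CUT&RUN (46.7 to 78.4, rank 1786), close to the end of Gdf9 as well. Uqcrfs1, the Rieske iron-sulfur protein, had 11 (5.49 to 19.7) in ChIP and 17 (9.90 to 27.2) in CUT&RUN, 226 and 201 bp upstream of the start. Uqcr11 had an end summit in ChIP alone (pileup 10), at the end away from its start. Uqcrc1, a core protein of the complex, had one in CUT&RUN alone (pileup 17). Uqcrb, Uqcrc2, Uqcrh and Uqcr10 had no summit in the span plus 10 kb.

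Complex IV, cytochrome c oxidase, had ChIP end summits at 4 of 18 genes (22.2%, 6.41 to 47.6), near the background of 23.0%. CUT&RUN end summits stood at 7 (38.9%, 17.3 to 64.3, against 27.2%). The 4 genes in both lists were Cox7c, Cox4i1, Cox8a and Cox7a2l. Cox7c had pileups of 17 (9.90 to 27.2) in ChIP and 35 (24.4 to 48.7) in CUT&RUN, with summits 98 and 43 bp upstream of the start. Cox4i1, the common form of subunit IV, had 18 (10.7 to 28.4) in ChIP and 23 (14.6 to 34.5) in CUT&RUN, with Emc8 sharing the region. Cox8a and Cox7a2l, a factor of respiratory supercomplexes, were weaker, with 11 and 8 in ChIP and 13 and 12 in CUT&RUN. Cox5b, Cox6c and Cox7a1 had end summits in CUT&RUN alone, with pileups of 14, 12 and 11.

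Of the 11 complex IV genes without an end summit, 6 are isoforms known for muscle, testis or lung. Among all 8 isoforms of other tissues in the list, Cox4i2, Cox6a2, Cox6b2, Cox7b2, Cox8b and Cox8c had no summit in the span plus 10 kb. This share, 6 of 8 (75%, 34.9 to 96.8), has an interval that includes the 49.5% of all protein-coding genes. Cox7a1 had the weak CUT&RUN summit named above, and Ndufa4l2 had a ChIP summit with a pileup of 8 (3.45 to 15.8), nearer to Stac3. Without these 8 genes and the assembly factors, 38 of 80 subunit genes had an end summit in ChIP (47.5%), 42 in CUT&RUN (52.5%) and 29 in both (36.2%). The shares of all protein-coding genes were 23.0%, 27.2% and 18.3%.

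The span boundaries misplaced some genes whose RefSeq start lies inside the span. The CUT&RUN summit of Atp5j lay just inside the 1 kb limit, 904 bp from an end, and that of Atp5g3 just outside it, at 1133 bp, although it stood 5 bp from the start site. Cox5a had a ChIP summit 81 bp upstream (pileup 15, 8.40 to 24.7) and a CUT&RUN summit 31 bp downstream (pileup 30, 20.2 to 42.8) of its start, and Cox7a2 had summits 173 and 178 bp downstream (pileups 12 and 22). Atp5d had a ChIP summit 71 bp upstream of its start (pileup 11). The summits named here for Atp5g3, Cox5a, Cox7a2 and Atp5d are counted with the start-site rule above and not with the rule on ends, and that of Atp5j is counted with both.

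ATP synthase, which makes ATP from the proton gradient, had end summits in ChIP at 6 of 17 genes (35.3%, 14.2 to 61.7, against 23.0% of all protein-coding genes). In CUT&RUN 10 had one (58.8%, 32.9 to 81.6, against 27.2%). The 6 were among the 10, so the share in both lists was also 35.3%, against 18.3%. Atp5a1, the alpha subunit of the catalytic head, had pileups of 28 (18.6 to 40.5, rank 836) in ChIP and 30 (20.2 to 42.8) in CUT&RUN, with Haus1 within 1 kb. Atp5b, the catalytic beta subunit, was the best ranked gene with an end summit in CUT&RUN and none in ChIP, with a pileup of 34 (23.5 to 47.5), 158 bp upstream of the start. It differs in this from Atp5a1, its partner in the head. Of the genes of the c ring, Atp5g1 and Atp5g2 had end summits in both lists and Atp5g3 had none. Atp5g1 had pileups of 10 (4.80 to 18.4) in ChIP and 54 (40.6 to 70.5) in CUT&RUN, and Atp5g2 had 10 (4.80 to 18.4) and 21 (13 to 32.1). Atp5e, the epsilon subunit, had 11 in ChIP and 16 in CUT&RUN, and Atp5pb, of the peripheral stalk, 11 and 14, both nearer to Wdr77. Atp5l, subunit g, had 8 and 17, and these summits lay at the end away from its start, 7313 and 7301 bp downstream of it. A second CUT&RUN end summit of Atp5l, with a pileup of 15 (8.40 to 24.7), lay 240 bp upstream of the start. CUT&RUN alone had end summits at Atp5c1, the gamma subunit, Atp5j and Atp5md, with pileups of 11, 20 and 15.

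**Figure D3:**
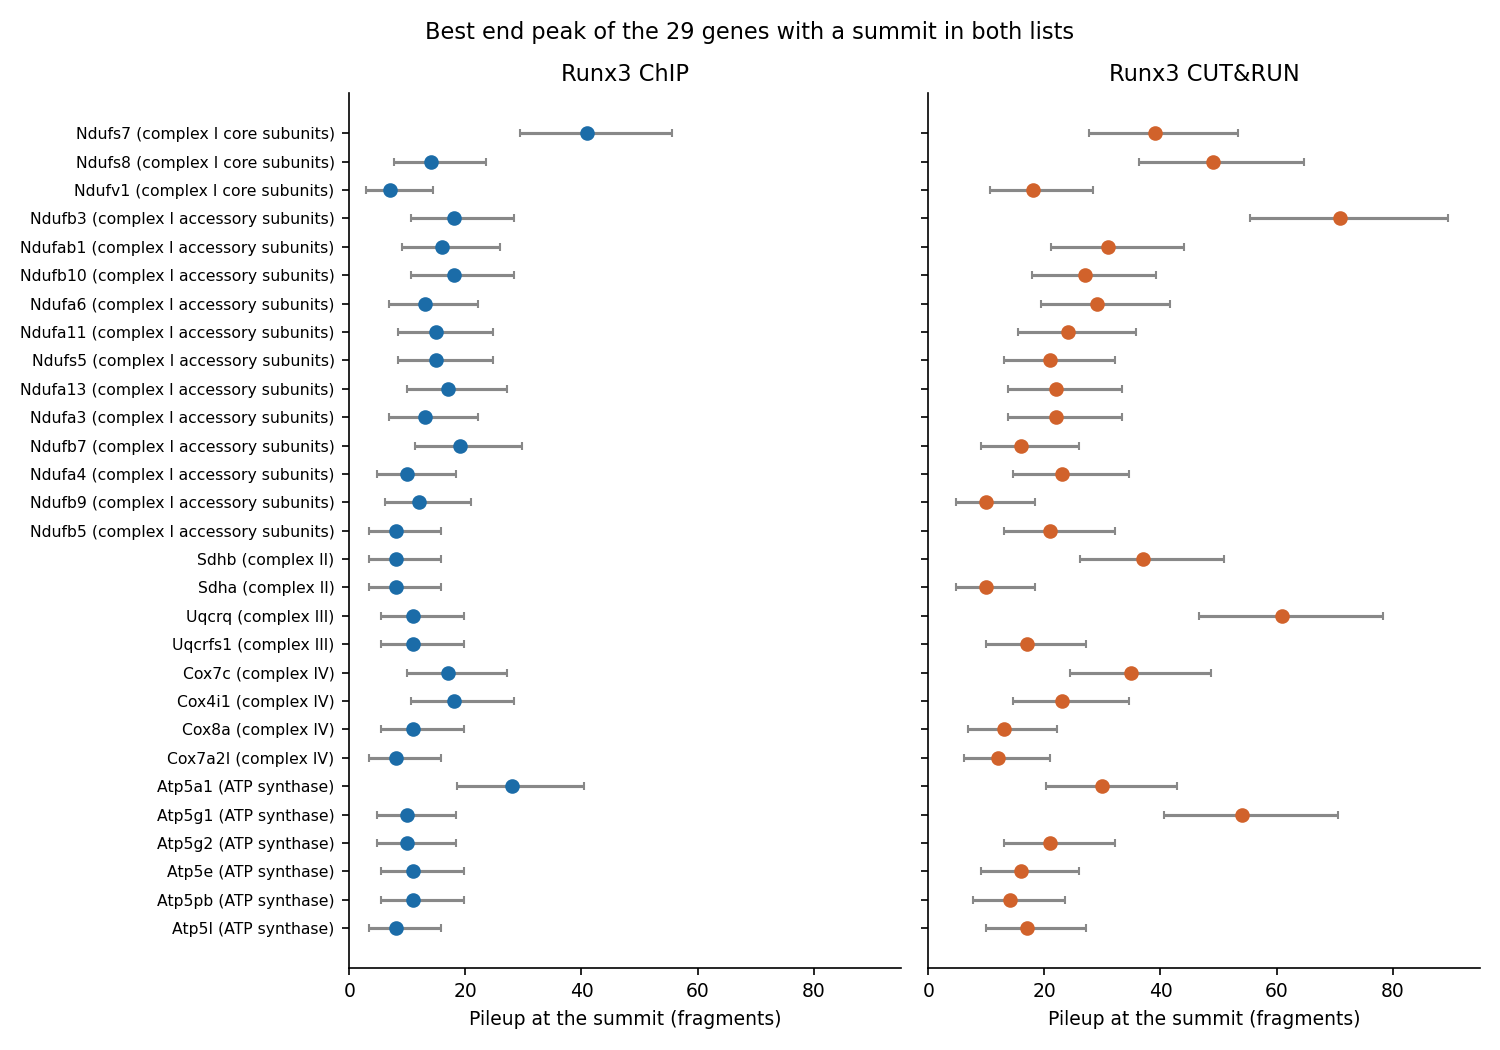
Points give the pileup in fragments of the best peak within 1 kb of a gene end for the 29 genes with a summit in both lists, with exact 95% Poisson intervals as bars, for ChIP (left) and CUT&RUN (right), grouped by complex. Ndufs7 and Atp5a1 are highest in ChIP with 41 and 28, with overlapping intervals, and Ndufb3, Uqcrq and Atp5g1 are highest in CUT&RUN with 71, 61 and 54.

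In the span plus 10 kb, 54 of the 96 genes had a ChIP summit (56.2%, against 40.2% of all protein-coding genes), 64 a CUT&RUN summit (66.7%, against 45.1%) and 47 both (49%, against 34.9%), while 25 had none (26%, against 49.5%). Many of the stronger peaks in these windows stood at other genes. Atp5h, a stalk subunit without an end summit, had 3 ChIP and 4 CUT&RUN peaks, the best with pileups of 31 (21.1 to 44) in ChIP and 77 (60.8 to 96.2) in CUT&RUN, outside the gene and nearest to Mrpl58, whose end lay 3545 and 3567 bp away. Atp5d had 5 ChIP and 2 CUT&RUN peaks, with pileups of 9 to 12 and of 21 and 27. Cox6a1 had a ChIP summit with a pileup of 31 that lay 22 bp from the end of Gatc, a subunit gene of a mitochondrial amidotransferase. With gene spans alone, 29 genes had a ChIP summit (30.2%, against 22.4%) and 17 a CUT&RUN summit (17.7%, against 24.1%), and these genes are short, with a median span of 7.23 kb against 17.2 kb.

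Oxidative phosphorylation genes lie close to other genes more often than most. Another protein-coding gene had an end within 1 kb of an end of 54 of the 96 (56.2%, 45.7 to 66.4), against 24.8% of all protein-coding genes. Among genes with such a neighbour, 46.3% of the 54 had a ChIP end summit, against 39.2% of all, and 57.4% a CUT&RUN end summit, against 47.6%. Summits in both lists stood at 31.5% of the 54, against 32% of all genes with such a neighbour, so for both lists together there was no excess there. Among genes without one, 42.9% of the 42 had a ChIP end summit, against 17.6%, 33.3% a CUT&RUN end summit, against 20.4%, and 28.6% both, against 13.8%. The part of neighbours in the counts was not tested beyond these values. Of the 47 ChIP and 47 CUT&RUN peaks at ends of these genes, 21 and 25 also stood within 1 kb of another gene's end, and 10 and 11 were closer to that gene. The neighbours include the mitochondrial ribosomal protein genes Mrpl47 (beside Ndufb5) and Mrpl36 (beside Ndufs6), Rps28 (beside Ndufa7), and Gabpa, the DNA-binding part of GABP, beside Atp5j. With all such shared summits left out, 24 genes kept an end summit in ChIP (25%, against 16.1%), 21 in CUT&RUN (21.9%, against 18.8%) and 16 in both (16.7%, against 12.5%).

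Most end summits lay near the start site. Of the 36 genes with a ChIP end summit and a start in the table, 28 had their best summit within 250 bp of the start, and 18 lay upstream and 18 downstream or on it, with a median of 1.5 bp. Of 39 genes in CUT&RUN, 35 lay within 250 bp and 32 lay upstream, with a median of -53 bp. These positions were not taken for all protein-coding genes, so they are not shown to be particular to this set. In the 29 genes with summits in both lists, the median distance between the best summits was 60 bp (quartiles 25 and 122), and 21 pairs were within 100 bp. When all end summits were counted, 22.9% of the 96 genes had summits of both lists no more than 100 bp apart, against 14% of all protein-coding genes. At any distance the shares were 30.2% against 18.3%, so such closeness is not shown to be particular to these genes. Of the 47 ChIP peaks at these ends, 28 overlapped a CUT&RUN peak by at least 1 bp (59.6%, 44.3 to 73.6), against 70% of all ChIP peaks at ends of protein-coding genes. Of the 47 CUT&RUN peaks, 28 overlapped a ChIP peak (59.6%), against 61%.

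**Figure D4:**
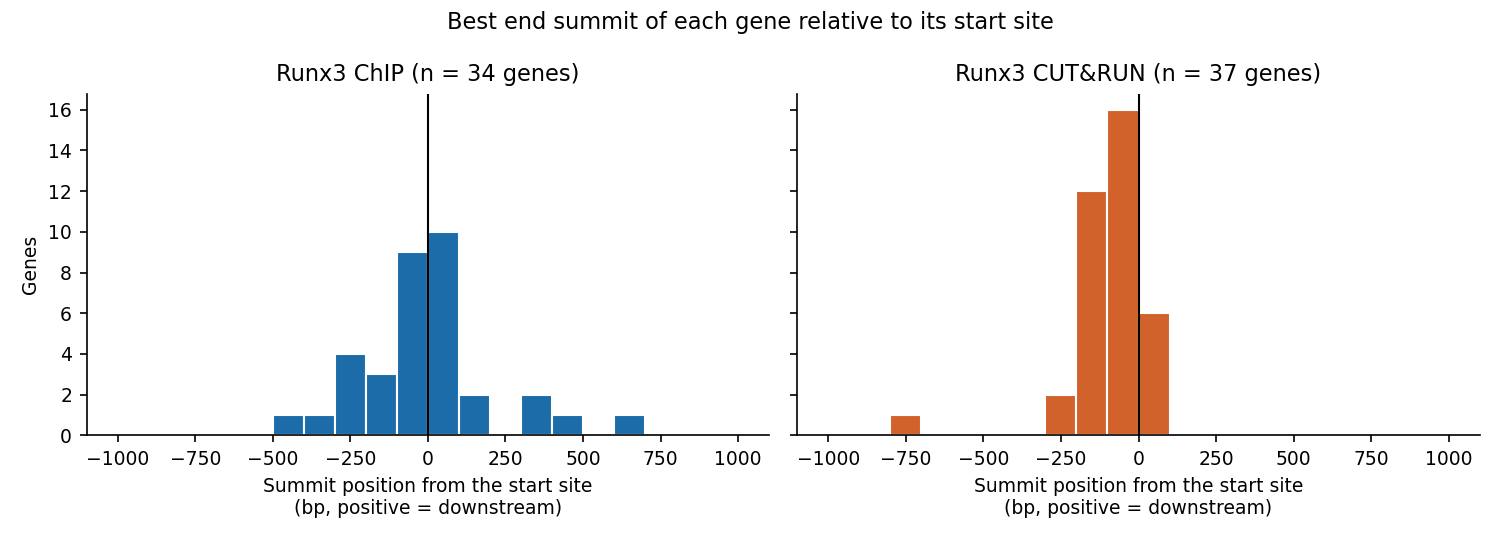
Bars count genes by the distance in bp of their best end summit from the start site, with positive values downstream, for ChIP (left, 34 genes within 1 kb) and CUT&RUN (right, 37 genes within 1 kb). CUT&RUN summits lie mostly just upstream of the start (median -53 bp over 39 genes), and ChIP summits lie on both sides (median 1.5 bp over 36 genes).

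Promoter windows from RefSeq, 250 bases before to 50 after the start, were at hand for 78 of the 96 genes and for 17492 protein-coding genes. A RUNX match, TGTGGT or TGCGGT on either strand, stood in 15 of the 78 (19.2%, 11.2 to 29.7), against 21.7% of all windows. It stood in 7 of the 17 windows with a summit in both lists (41.2%, 18.4 to 67.1), against 40.2% of such windows of all protein-coding genes, and in 4 of the 34 with no summit (11.8%, 3.30 to 27.5), against 19.5%. Over all 78 windows, matches of the other factors were more frequent than in the windows of all protein-coding genes. The NRF1 motif (GCGC, any base, then TGCGC) stood in 18 of 78 (23.1%, 14.3 to 34), against 6.60%, the ETS motif CCGGAAG in 18 of 78 (23.1%), against 11.9%, and the YY1 motif AAGATGGCG in 7 of 78 (8.97%, 3.68 to 17.6), against 1.94%. In the 17 windows with a summit in both lists, the ETS motif stood in 3 (17.6%, 3.8 to 43.4). The interval includes the 27.6% of such windows of all protein-coding genes. The NRF1 motif stood in 17.6% of the 17, against 15.1%, and the YY1 motif in 5.88%, against 4.65%. The 78 windows had a median of 20 CpG and 58.5% GC, against 13 and 56.3%. A match is a description of letters and no measure of binding.

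In 6 windows both best summits and a RUNX match were present, with the centre of the nearest match a median of 15.5 bp from the ChIP summit and 31.5 bp from the CUT&RUN summit. Beside Ndufs7 and Ndufs8, these were 4 genes whose match was within 50 bp of the ChIP summit. Their surroundings are printed as 60 bases on the strand of the gene because the match, in capitals, reads ACCACA, the reverse complement of TGTGGT, in each. They come from chr7:122101964-122102023 (minus strand, Ndufab1), chr17:24724478-24724537 (minus strand, Ndufb10), chr7:3617324-3617383 (plus strand, Ndufa3) and chr13:30545495-30545554 (minus strand, Uqcrfs1).
Ndufab1: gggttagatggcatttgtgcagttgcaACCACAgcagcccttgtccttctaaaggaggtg
Ndufb10: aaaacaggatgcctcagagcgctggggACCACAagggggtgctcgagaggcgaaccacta
Ndufa3: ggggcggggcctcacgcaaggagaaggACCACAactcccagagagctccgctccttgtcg
Uqcrfs1: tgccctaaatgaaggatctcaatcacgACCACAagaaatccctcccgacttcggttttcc

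**Figure D5:**
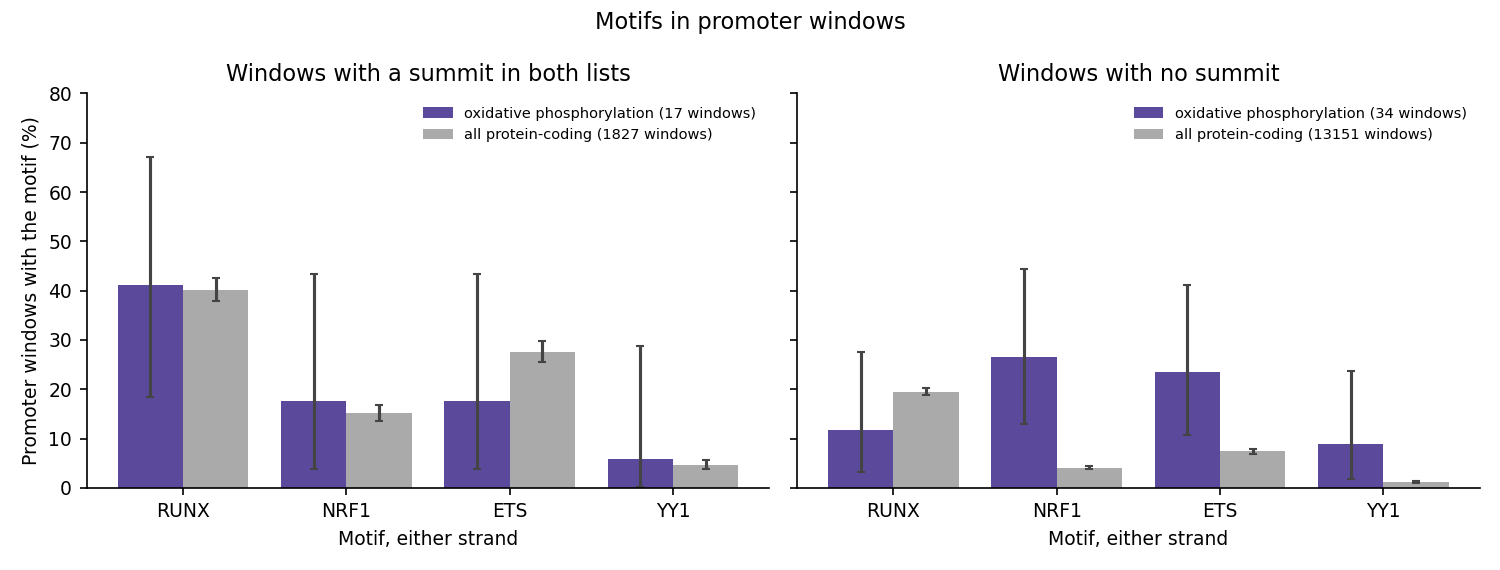
Bars give the percentage of promoter windows that hold each motif on either strand, with exact 95% intervals, for oxidative phosphorylation genes (violet) and all protein-coding genes (grey), in windows with a summit in both lists (left) and with no summit (right). The RUNX share was 41.2% of 17 windows against 40.2% on the left and 11.8% of 34 windows against 19.5% on the right.

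Summits also stood at the ends of pathway genes outside the rule. The shares of all protein-coding genes to set beside them are 23.0% in ChIP, 27.2% in CUT&RUN and 18.3% in both. Of 12 genes of electron carriers or of ubiquinone synthesis, 6 had an end summit in ChIP (50%), 9 in CUT&RUN (75%) and 6 in both (50%). Cycs, cytochrome c, had pileups of 8 and 48, and Coq6, an enzyme of ubiquinone synthesis, 18 and 61. Cyc1, a complex III subunit whose symbol the rule does not cover, had no summit at an end, nor had Coq2 and Coq3. Of 37 assembly factors of complexes I to V outside the rule, 19 had an end summit in ChIP (51.4%), 22 in CUT&RUN (59.5%) and 15 in both (40.5%). Bcs1l, which inserts the Rieske protein into complex III, had pileups of 22 in ChIP and 30 in CUT&RUN, and Lyrm7, its partner, 19 and 52. Sco1, Sco2, Cox11 and Cox17 had no summit in the span plus 10 kb. Coa6 (10 in ChIP and 39 in CUT&RUN) and Cox19 (11 and 9) had end summits in both lists. Of 15 regulators of respiratory genes, 8 had an end summit in ChIP (53.3%), 8 in CUT&RUN (53.3%) and 7 in both (46.7%). The 7 included Nrf1 (12 and 29), Yy1 (14 and 19), Esrra (12 and 57), a nuclear receptor, and Tfam (16 and 21), the packaging factor of mitochondrial DNA. Ppargc1a, the coactivator PGC-1alpha, had no summit in the span plus 10 kb.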

How the data were processed

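Runx3 binding was measured by ChIP and CUT&RUN, with 1 library each. Bowtie, mm10 and MACS2 are named in the submitters' processing notes. The caller was MACS2 2.1.1.20160309 per the file headers, in paired-end mode with at most 1 fragment per position. The q threshold was 0.05 for ChIP, with the whole cell extract as control, and 1e-05 for CUT&RUN, which had no control and used an alignment named as nucleosome-free. Each library was called alone. The deposited lists give, as the authors' values, the pileup (a coverage signal), −log10 p and q values and a fold enrichment, a ratio to the expected background. In ChIP the fragments fell from 48285251 to 9532996 on duplicate removal, and in CUT&RUN from 17896991 to 14068364.

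Ranks within a list went by q, then pileup. Gene spans came from RefSeq, and start sites and windows from its promoter table, using the first start of a gene for motifs. Counts used Python 3.11.15 with pandas 2.3.3, SciPy 1.17.1 and bedtools 2.31.1. The counting was tested on simulated peaks. Shares have Clopper-Pearson and pileups Poisson intervals. With 1 library per assay no test was made and no p-value is given. The rule for named genes took the first 20 by mean rank over both lists, the 3 best in each list alone and the 3 with the most peaks within 10 kb. Other genes, some with intervals, were named as examples after their values were seen. The genes and lists were chosen with earlier results of these data known. Some single genes are counted in the totals but not reported here by name.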

Additional observations from a re-analysis of the deposited data

Results flagged for a closer look

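Signal outside the nuclear comparison appeared on the mitochondrial genome, which encodes the other subunits of the same complexes. The CUT&RUN list held 19 peaks there and the ChIP list 0 of 13166, which allows a share of up to 0.0228% (3 peaks). ChIP peaks were called against a whole cell extract and CUT&RUN peaks without a control, so the counts are not like for like. Of the 19 summits, 13 lay in coding genes, and 7 of the 13 coding genes held one (ND1, ND2, COX1, ND4, ND5, ND6 and CYTB). Over all 19 peaks, including those outside coding genes, the pileups were 270 to 508 fragments, against a median of 25 in the whole list, and the folds over the local background were 1.66 to 3.82, against a median of 12.8. The part of the many copies of this genome per cell was not tested.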

How the results depend on the processing

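No paired analysis was possible because each assay had 1 library. Of 44 alternative counts, 30 stayed within 1.5 times the value reported, among them those at 0.5 and 2 kb from an end, at start sites, for subunits only, without the isoforms of other tissues and in the span plus 50 kb. In 41 of the 44 the share in oxidative phosphorylation genes was above that in all protein-coding genes. The exceptions were gene spans alone in CUT&RUN, gene spans alone in both lists, and the overlap of at least 0.5 of a ChIP peak. With the stronger 0.5 of each list, the genes with an end summit numbered 20 in ChIP, 17 in CUT&RUN and 9 in both. Those with a summit in the span plus 10 kb numbered 33 in ChIP (34.4%, against 25.6% of all protein-coding genes). In CUT&RUN they numbered 28 (29.2%, against 28.4%) and in both 21 (21.9%, against 19.7%), so these last shares were near those of all genes. With the ChIP list held to the CUT&RUN threshold of 1e-05, 27 genes had a ChIP end summit (28.1%, against 15.3%). With summits shared with another gene's end left out, the counts were 24 in ChIP, 21 in CUT&RUN and 16 in both. With gene spans alone they were 29, 17 and 10 (30.2%, 17.7% and 10.4%, against 22.4%, 24.1% and 16.2%). When an overlap had to cover at least 0.5 of the ChIP peak, 10 of the 47 ChIP peaks overlapped a CUT&RUN peak, against 28 at 1 bp. Each of these alternatives keeps fewer peaks or a smaller window by construction. ChIP peaks with the lowest pileup of 7 fragments have intervals from 2.81 to 14.4, so single weak peaks are uncertain, and the assays differed in cells, mice, control and threshold together.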
